A study of Mus musculus with 8 samples.

Results

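Chemokines and their receptors were followed in the inguinal mammary gland of gonadectomized mice over the day after an injection of 17β-estradiol (E2). The family was taken by symbol, as every gene whose annotated symbol is Ccl, Cxcl, Ccr or Cxcr plus a number, together with Cx3cl1, Cx3cr1, Xcl1 and Xcr1 and without Cxcl15. That gave 47 of 18193 genes on the array, 31 ligands and 16 receptors. Ccl19 shares its probe set with other genes and was not used, and Cxcr1 was not analysed here. The mice were virgin and 12 to 13 weeks old, and all of them, vehicle animals included, had been gonadectomized, which removes the main source of sex steroids. The sources used here give neither sex nor strain. The 6 E2 arrays stood for 1, 3 and 6 h (early) and for 12, 18 and 24 h (late) after a subcutaneous injection, with 1 array per time, and the 2 vehicle arrays, both titled 24 h, for mice given a vehicle solution. The dose is labelled with 2 conflicting units and is not given here, and the times are those of the titles, since every description reads 24 h. The labels speak of tissue taken from every mouse in a group, without saying whether an array held a pool. P-values therefore measure the spread between these arrays, and within a window that spread includes differences between times. No vehicle array matches the times from 1 to 18 h, at which E2, the injection itself and the time of day cannot be told apart.

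Chemokines are small secreted or membrane-anchored proteins that bind G protein-coupled receptors on leukocytes and direct where those cells move. The monocyte chemoattractant proteins draw cells with Ccr2, the CXC ligands with a Glu-Leu-Arg motif draw neutrophils through Cxcr2, and Cxcl9 and Cxcl10 are induced by interferon and draw T cells with Cxcr3. Cxcl12, Cxcl13 and the Ccr7 ligands are made largely by stromal cells, and they position lymphocytes that carry Cxcr4, Cxcr5 and Ccr7. The inguinal mammary fat pad of the mouse contains a lymph node, and macrophages and eosinophils are known to take part in duct growth.

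Values are log2 of the deposited intensity, taken from the brightest probe set of a gene and given as a level or as a difference from the mean of the 2 vehicle arrays. Over 10916 genes the difference between the vehicle arrays had an SD of 0.13, and it was 0.42 at most among the chemokine genes above the level filter described next. A gene was tested when its mean level was at or above 7.72, the 40th percentile. Of the 47 family members 31 passed, 22 ligands and 9 receptors. Markers of other tissues differed between arrays. The mean of 18 skeletal muscle markers lay 0.79, 0.63, 1.24, 0.20, 0.81 and 0.93 above the vehicle mean at the 6 times. The mean of 16 B lymphocyte markers lay at 0.14, 0.11, -0.16, 0.11, -0.44 and -0.44, and that of 14 T lymphocyte markers at 0.05, 0.05, -0.10, 0.01, -0.33 and -0.25. In bulk tissue, fewer cells of a type and less RNA per cell cannot be told apart. With so few arrays, precision is limited by their number.

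Across the day the largest departures from vehicle among the 31 members above the filter were those of Ccl12 (3 and 6 h), which draws monocytes, of Cxcl5 (3 h), which draws neutrophils, and of the receptors Ccr6 (24 h) and Ccr1 (6 h). At 3 h, 1 of these 31 (Ccl12) exceeded each vehicle array at least 1.5-fold, against 0.568% of all genes tested, and 1 (Cxcl5) was at least 1.5-fold lower, against 0.229%. At 6 h, 2 members (Ccl12 and Ccr1) were at least 1.5-fold higher, against 0.586%, and 0 were lower, against 0.156%. No member passed that fold at the other times, where the share of all genes was 0.293% higher and 0.0275% lower at 1 h, 0.147% and 0.0641% at 12 h, 0.211% and 0.0183% at 18 h, and 0.192% and 0.0275% at 24 h. These single-time counts have no replicate check. Under another analysis, a limma fit with 7 group means in which the spread of a lone array is assumed to equal that between the vehicle arrays, Ccl12 was the 1 member called at 3 h, where 0.595% of genes were, and the 1 called at 6 h, where 0.366% were. That fit called 0 members at 1, 12, 18 and 24 h, with 0.0641%, 0.0366%, 0% and 0% of genes.

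By direction alone, 15 members were above both vehicle arrays at 1 h (39.7% of genes were) and 3 below (22.1%). At 3 h there were 13 above (35.0%) and 9 below (28.6%), and at 6 h 17 above (38.6%) and 7 below (30.3%). At 12 h 8 members were above (37.9%) and 11 below (25.2%), at 18 h 5 above (27.2%) and 18 below (44.2%), and at 24 h 11 above (29.0%) and 11 below (46.4%). Genes of any kind lay below vehicle more often than above it at 18 and 24 h, and the members at 12 and 18 h.

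**Figure D1:**
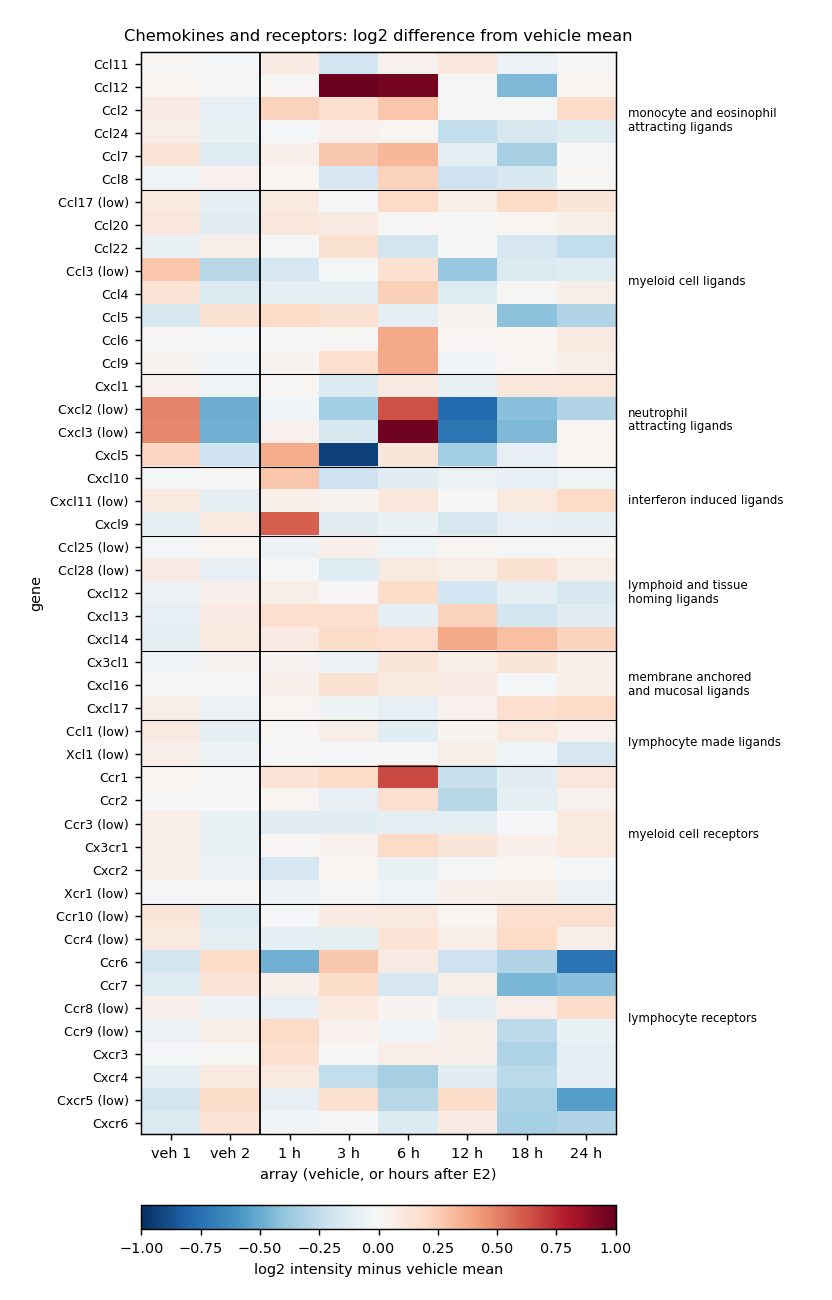
Log2 intensity minus the vehicle mean of all 47 genes (rows, grouped by role; "low" marks the 16 below the level filter) on the 8 arrays (columns, vehicle then hours after E2). Ccl12 at 3 and 6 h and Cxcl5 at 3 h are the darkest cells among genes above the filter, at 0.98, 0.96 and -0.93.

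Ccl12, Ccl2, Ccl7, Ccl11 and Ccl8 are neighbours on chromosome 11 in the RefSeq annotation of GRCm38.p6, in the order Ccl2, Ccl7, Ccl11, Ccl12 and Ccl8. Ccl2, Ccl7 and Ccl12 are monocyte chemoattractants, and Ccl11 is eotaxin, which draws eosinophils. Ccl8 was listed in the same role group. The upstream windows of Ccl12 and of its neighbour Ccl8 are printed because the first was, among members above the filter, farthest from vehicle at 3 and 6 h while the second was not. Each covers the 250 bases before the gene's start, 5′ to 3′ on the gene's strand, from RefSeq, build GRCm38.p6. Capitals mark matches, on either strand, to 7 motifs: the estrogen response element (GGTCA, any 3 bases, TGACC), its half-site GGTCA, the AP-1 motif TGANTCA, the NF-κB consensus, an interferon response motif (GAAA, any 2 bases, GAAA), an interferon-activated STAT motif (TTC, any 3 bases, GAA) and the TATA box TATAAA. A half-site inside a full element counts for both.
Ccl12, chr11:82101595-82101844, plus strand: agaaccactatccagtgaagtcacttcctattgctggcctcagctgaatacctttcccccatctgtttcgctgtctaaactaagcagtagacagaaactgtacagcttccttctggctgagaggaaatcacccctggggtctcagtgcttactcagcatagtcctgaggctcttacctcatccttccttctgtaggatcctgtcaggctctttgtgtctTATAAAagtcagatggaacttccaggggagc
Ccl8, chr11:82114935-82115184, plus strand: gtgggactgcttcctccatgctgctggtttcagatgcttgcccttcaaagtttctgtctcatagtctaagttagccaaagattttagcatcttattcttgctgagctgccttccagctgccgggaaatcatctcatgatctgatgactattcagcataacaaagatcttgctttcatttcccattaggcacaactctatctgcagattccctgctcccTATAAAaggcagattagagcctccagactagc
Both windows held a TATA box match, at bases -31 to -26 from the start in Ccl12 and at -32 to -27 in Ccl8, and no match to the other motifs. TATAAA was present in 12.4% of 32851 windows of this length, the half-site in 35.2%, the full estrogen response element in 0.0639% and the AP-1 motif in 6.75%. Windows were found for 34 members, of which 17 held a half-site, 10 a TATA box, 4 an AP-1 motif and 0 a full element. A match is a description of these letters and not a site of binding.

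Ccl12 had a level of 8.33 and 8.28 on the vehicle arrays, and of 8.31, 9.29, 9.27, 8.31, 7.86 and 8.33 from 1 to 24 h. The 3 and 6 h arrays stood apart from the other 6, and the 1 h array lay between the vehicle arrays. This was 1.97-fold the vehicle mean at 3 h and 1.95-fold at 6 h. At those times the fit with 7 group means gave differences of 0.98 ± 0.0864 and 0.96 ± 0.0864 (SE, adjusted p = 0.0152 and 0.0277 by limma with Benjamini-Hochberg over all genes tested). That SE and p rest on the difference between the 2 vehicle arrays and its moderation across genes, with 1 residual degree of freedom, and hold no replicate of either time. At 18 h Ccl12 lay 0.45 below the vehicle mean on the log2 scale, the lowest of the 8 arrays, with an adjusted p of 0.623 in that limma fit. Macrophage markers (15 genes) averaged -0.01 against the vehicle mean at 3 h and 0.17 at 6 h. Ccl12 has 1 probe set on the array.

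The neighbouring genes did not share the size of that difference. Ccl7 had a level of 8.74 and 8.48 on the vehicle arrays, and of 8.66, 8.88, 8.94, 8.51, 8.28 and 8.61 over the 6 times. It was above both vehicle arrays at 3 and 6 h and below both at 18 h, the same times as Ccl12, with differences of 0.27, 0.33 and -0.33 from the vehicle mean. Ccl2 stood at 9.28 and 9.11 on the vehicle arrays and at 9.42, 9.36, 9.48, 9.20, 9.18 and 9.39 over the times, so the 3 early arrays were all above vehicle. Ccl8 read 12.59 and 12.67 with vehicle, then 12.65, 12.46, 12.86, 12.42, 12.47 and 12.64, low at 3 h where Ccl12 was high. Ccl11 kept between 9.47 at 3 h and 9.77 at 12 h, around vehicle levels of 9.68 and 9.65. Ccr2, the receptor of the monocyte chemoattractants, had vehicle levels of 9.49 on both arrays and lay at 9.51, 9.41, 9.65, 9.21, 9.40 and 9.53. Of the 4 Ccr2 probe sets, 3 were lowest at 12 h, at -0.28, -0.21 and -0.36, and the fourth was at -0.08 there.

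**Figure D2:**
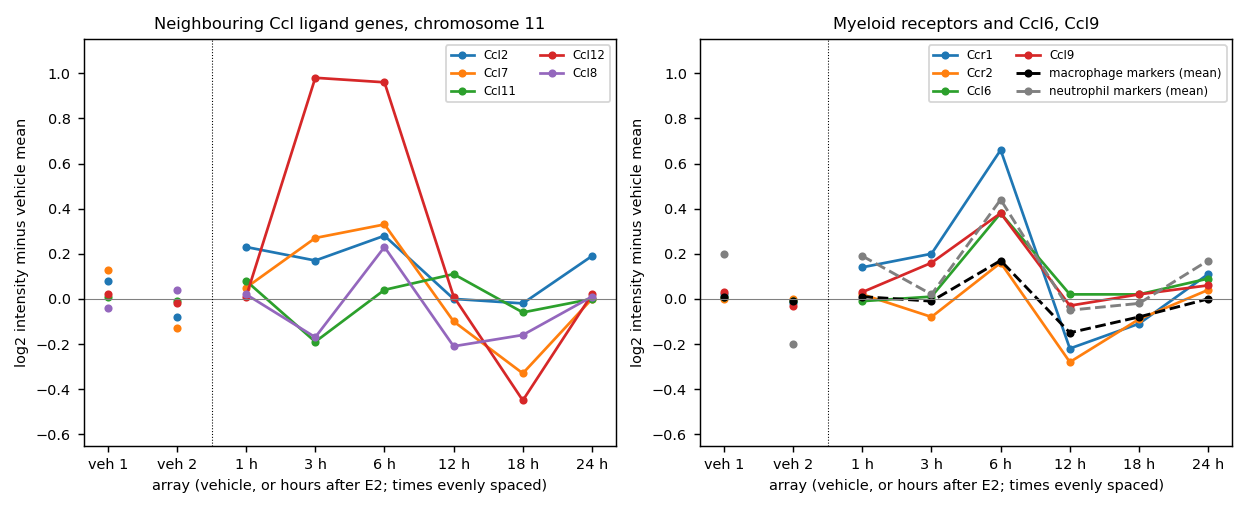
Log2 intensity minus the vehicle mean on each array for 5 neighbouring Ccl genes (left) and for Ccr1, Ccr2, Ccl6 and Ccl9 with the means of macrophage and neutrophil markers (right); unjoined points are the vehicle arrays. Ccl12 reaches 0.98 and 0.96 at 3 and 6 h while its neighbours stay within 0.33, and Ccr1, Ccl6 and Ccl9 peak at 6 h with both marker means. The neutrophil marker mean lies at 0.20 and -0.20 on the vehicle arrays.

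Ccr1, a receptor of monocytes, macrophages and neutrophils, had a level of 8.52 and 8.48 on the vehicle arrays, and of 8.64, 8.70, 9.16, 8.28, 8.39 and 8.61 over the times. The 6 h array was the highest and all 3 early arrays were above vehicle. Its 6 h difference was 0.66, or 1.58-fold (adjusted p = 0.0604 in the limma fit with 7 group means). The dimmer Ccr1 probe set was 0.34 above its vehicle mean at 6 h. Ccl6 and Ccl9, macrophage-made ligands of Ccr1 in the mouse, were each 0.38 above the vehicle mean at 6 h, with levels of 12.91 and 12.48. Their second probe sets gave 0.49 and 0.48 at that time. Ccl6 had 12.54 and 12.53 on the vehicle arrays and between 12.52 and 12.63 at the other 5 times, and Ccl9 had 12.13 and 12.07 with vehicle and between 12.07 and 12.26. On the 6 h array the macrophage marker mean was 0.17 above vehicle, with 14 of 15 markers above both vehicle arrays, where 38.6% of genes were. The mean of 5 neutrophil markers was 0.44 above, against 0.20 and -0.20 on the vehicle arrays themselves. At 6 h S100a8 and S100a9 were at 0.88 and 0.83, and Elane, Ngp and Csf3r at 0.17 each. Macrophage markers averaged 11.02 to 11.17 on the late arrays, 11.16 to 11.34 on the early arrays and 11.16 to 11.18 on the vehicle arrays. Neutrophil markers averaged 8.86 to 9.09, 8.93 to 9.36 and 8.72 to 9.12 in those groups, and their part in the 6 h values was not tested.

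Among the ligands that draw neutrophils, Cxcl5 had a single low array, that of 3 h. Its level was 8.85 and 8.43 on the vehicle arrays, and 9.01, 7.71, 8.76, 8.28, 8.56 and 8.66 over the times. The 3 h array was the lowest by a wide margin and lay at 0.525-fold of the vehicle mean, a difference of -0.93 (adjusted p = 0.133 in the limma fit with 7 group means). The vehicle arrays differed by 0.42, more than for any other member above the filter. Cxcl1, the main neutrophil attractant of stromal cells, lay at -0.14 at 3 h by its brightest probe set, -0.05 by the next and -0.43 by the dimmest. At 12 h they gave -0.07, -0.10 and -0.40, so the probe sets disagreed in size and on which array was lowest. Cxcl2 and Cxcl3, both below the level filter, had vehicle levels of 8.21 and 7.23 and of 6.83 and 5.87. They were highest at 6 h (8.37 and 7.32) and lowest at 12 h (6.94 and 5.63). Vehicle 1 alone exceeded vehicle 2 by 0.98 and 0.96 for this pair, so the 1, 3, 18 and 24 h levels of both lay between the vehicle arrays. Neutrophil markers were 0.40 higher in vehicle 1 than in vehicle 2. Cxcr2, the receptor of these ligands, ranged from 8.09 at 1 h to 8.28, against 8.32 and 8.20 on the vehicle arrays.

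Of the 3 interferon-induced ligands, Cxcl9 and Cxcl10 had their highest level at 1 h and Cxcl11 did not. Cxcl9 had a level of 9.98 and 10.16 on the vehicle arrays, and of 10.67, 9.96, 10.01, 9.91, 9.99 and 9.98 over the times. The 1 h array alone was high, 1.52-fold the vehicle mean, and the other E2 arrays lay within 0.16 of that mean. The second Cxcl9 probe set was 0.20 above its vehicle mean at 1 h, the highest of its arrays. Cxcl10 was at 8.93 at 1 h against 8.64 and 8.66 on the vehicle arrays, and lowest at 3 h, at 8.44. Cxcl11, below the filter, lay between 5.96 and 6.16, around vehicle levels of 6.05 and 5.87. Their receptor Cxcr3 was at 8.29 at 1 h and 7.82 at 18 h, against 8.12 and 8.14 with vehicle. In the fit with 7 group means the 1 h differences of Cxcl9, 0.60, and Cxcl10, 0.28, did not pass (adjusted p = 0.353 and 1.0 by limma). The upstream windows of this neighbouring pair on chromosome 5 are shown because both ligands were highest at 1 h. They follow the same rules as above, and capitals mark the same motifs.
Cxcl9, chr5:92328080-92328329, minus strand: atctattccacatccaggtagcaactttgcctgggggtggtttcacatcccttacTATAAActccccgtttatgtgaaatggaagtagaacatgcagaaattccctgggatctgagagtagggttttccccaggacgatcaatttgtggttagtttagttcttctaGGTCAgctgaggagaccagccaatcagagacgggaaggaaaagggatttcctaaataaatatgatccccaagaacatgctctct
Cxcl10, chr5:92348890-92349139, minus strand: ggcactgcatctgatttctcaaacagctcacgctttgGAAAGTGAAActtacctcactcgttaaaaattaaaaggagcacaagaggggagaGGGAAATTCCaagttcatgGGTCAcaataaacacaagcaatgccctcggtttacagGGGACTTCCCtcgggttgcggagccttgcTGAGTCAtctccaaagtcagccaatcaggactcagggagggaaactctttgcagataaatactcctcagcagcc
The Cxcl9 window held a half-site at bases -84 to -80 and a TATAAA match at -195 to -190. The Cxcl10 window held a half-site at -140 to -136, an AP-1 motif at -74 to -68, an interferon response motif at -213 to -204 and 2 matches to the NF-κB consensus, at -159 to -150 and -103 to -94. The NF-κB consensus was found in 3.9% of all windows, the interferon response motif in 2.98% and the STAT motif in 7.02%, and among the 34 members' genes in 8, 2 and 3.

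**Figure D3:**
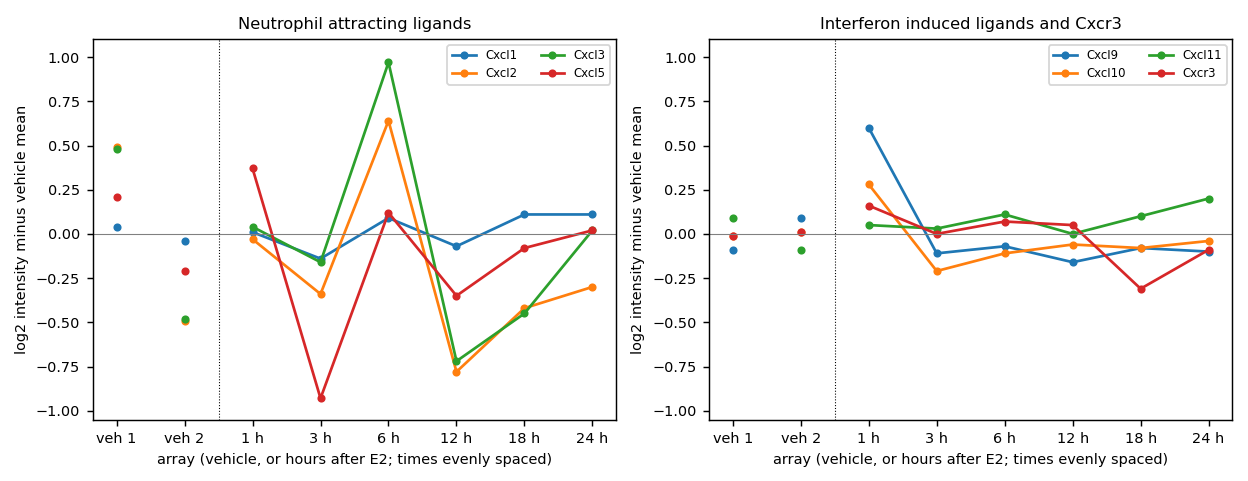
Log2 intensity minus the vehicle mean on each array for 4 neutrophil-attracting ligands (left) and for 3 interferon-induced ligands with their receptor Cxcr3 (right); unjoined points are the vehicle arrays. Cxcl5 is at -0.93 at 3 h, Cxcl2 and Cxcl3 differ by 0.98 and 0.96 between the vehicle arrays, and Cxcl9 is at 0.60 at 1 h.

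Ligands made by stroma and the receptors on lymphocytes were set side by side. Of the 8 ligands listed as made by stroma, 7 were measured, all above the filter, and of 10 lymphocyte receptors 5 were above it. At 18 and 24 h the stromal ligands averaged -0.04 and 0.04 from the vehicle mean, while the 5 receptors averaged -0.33 and -0.33. Over all 10 receptors, those below the filter included, the mean was -0.18 and -0.18, and Ccr4, Ccr8 and Ccr10 were above the vehicle mean at both times. At 1, 3, 6 and 12 h the ligands averaged 0.10, 0.06, 0.14 and 0.05 and the receptors -0.04, 0.04, -0.10 and -0.03. The receptors thus lay lowest on the arrays with the lowest B and T lymphocyte markers. At 18 h all 16 B markers and 13 of 14 T markers were below both vehicle arrays, where 44.2% of genes were. At 24 h 16 and 12 were below, where 46.4% of genes were. Array means of the marker levels were 9.62 to 10.17 (late), 9.89 to 10.19 (early) and 9.91 to 10.21 (vehicle) for B, and 8.73 to 9.08, 8.97 to 9.12 and 8.97 to 9.16 for T.

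Ccr7, which guides lymphocytes and dendritic cells into lymph nodes, had a level of 8.84 and 9.10 on the vehicle arrays, and of 9.02, 9.15, 8.79, 9.03, 8.51 and 8.55 over the times. The 18 and 24 h arrays were the lowest. Ccr6, a receptor of B cells and Th17 cells for Ccl20, was at 8.97 and 9.33 with vehicle and at 8.66, 9.42, 9.23, 8.94, 8.85 and 8.41. Its 24 h array was the lowest, its 1 h array was also low, and the 3 late arrays were all below vehicle. Ccl20, the ligand of Ccr6, stayed between 8.73 and 8.84 over the times, with 8.84 and 8.63 on the vehicle arrays. Cxcr5, the B cell receptor for Cxcl13, was below the level filter and read 7.50 and 7.87 with vehicle, then 7.60, 7.85, 7.41, 7.86, 7.36 and 7.13, lowest at 24 h. Cxcr6, carried by effector T cells and natural killer T cells, was at 7.83 and 8.10 with vehicle and at 7.63 and 7.67 at 18 and 24 h. Cxcr4, the Cxcl12 receptor, differed from this order, with 8.98 and 9.16 on the vehicle arrays, its lowest levels at 6 and 18 h (8.74 and 8.80) and 8.98 at 24 h. Ccl5, which is made by T and natural killer cells, was also lowest at 18 and 24 h, at 10.39 and 10.69 with vehicle and 10.74, 10.69, 10.45, 10.56, 10.13 and 10.23 over the times.

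The late-window differences of these genes against vehicle did not pass the test. For the late window (12, 18 and 24 h, n = 3) against vehicle (n = 2), Ccr6 lay at -0.42 ± 0.219 (SE), Ccr7 at -0.27 ± 0.160, Ccl5 at -0.23 ± 0.137, Cxcr6 at -0.19 ± 0.125 and Cxcr4 at -0.15 ± 0.119 (limma, adjusted p between 0.648 and 0.707). With the mean of B and T lymphocyte markers as a covariate, Ccr7 and Ccl5 were at -0.01, Cxcr6 at 0.01 and Ccr6 at -0.31. The B markers averaged -0.44 and -0.44 at 18 and 24 h, and the T markers -0.33 and -0.25. The lymphocyte covariate thus overlaps with the late window, and its fit cannot separate these markers from E2. With the mean of the muscle markers as covariate in its place, Ccr7, Ccl5 and Cxcr6 lay at 0.16, 0.12 and 0.11 and Ccr6 at -0.17. The muscle marker mean was 0.20 to 1.24 above the vehicle mean on the E2 arrays, against -0.19 and 0.19 on the vehicle arrays. It thus overlaps with the comparison against vehicle, and this fit cannot separate the muscle markers from E2.

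Cxcl12, the stromal ligand of Cxcr4, had a level of 11.53 and 11.63 on the vehicle arrays, and of 11.64, 11.59, 11.76, 11.39, 11.48 and 11.42 over the times. All 3 late arrays were below all early and vehicle arrays. The difference late minus early was -0.23 ± 0.0557 (SE, n = 3 each), with an adjusted p of 0.102 in limma that missed the threshold. Its other probe sets did not share this order, and at 12 h they stood at 0.15 and -0.04 where the brightest stood at -0.19. Cxcl13, the B cell attractant of lymph node follicles, ran 10.44 and 10.59 with vehicle and 10.69, 10.67, 10.42, 10.75, 10.33 and 10.40, lowest at 18 and 24 h. Its second probe set gave -0.41 and -0.31 at those times, against -0.18 and -0.11 for the brightest. Cxcl14, an epithelial and stromal chemokine, read 9.39 and 9.56 on the vehicle arrays and 9.56, 9.66, 9.65, 9.86, 9.78 and 9.70 over the times. All late arrays were above all early and vehicle arrays. Its late difference from vehicle was 0.30 ± 0.0704 (SE, unadjusted p = 0.00173, adjusted p = 0.634 in limma, n = 3 against 2). The dimmer Cxcl14 probe set was at 0.60 and 0.52 at 12 and 18 h and at 0.13 at 24 h. Luminal epithelium markers (13 genes) averaged 0.28, 0.19 and 0.14 above vehicle at 12, 18 and 24 h. In the late window 11 of them had a positive difference from vehicle and 2 a negative one, and their sizes were unlike. Krt8 was at 1.37, 0.87 and 0.56 at these times, Epcam at 0.0, 0.10 and 0.15, and Esr1 at -0.40, -0.28 and -0.34. Their part in the Cxcl14 values was not tested.

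**Figure D4:**
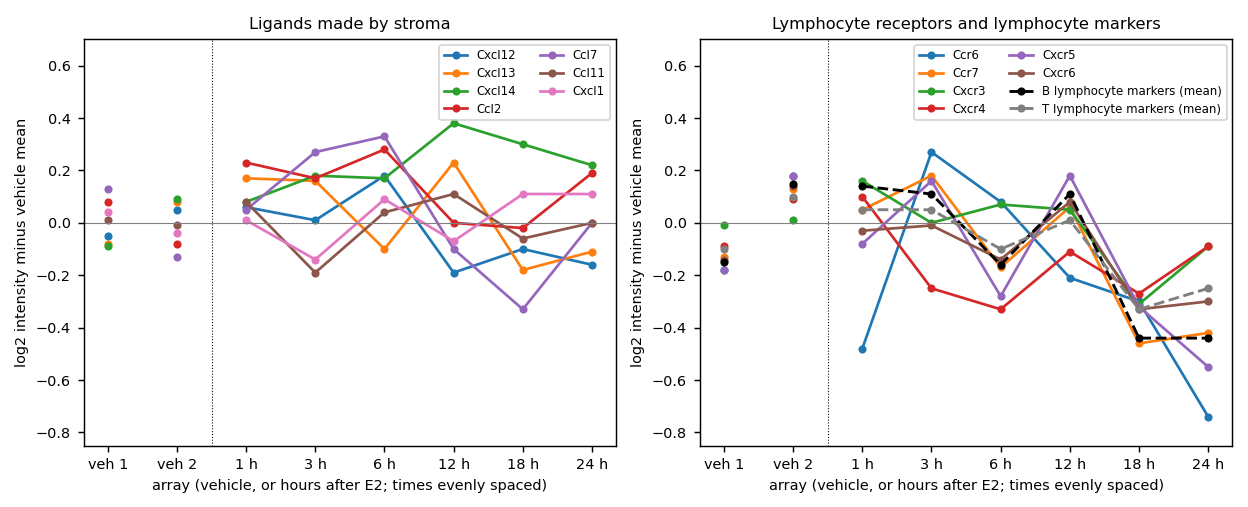
Log2 intensity minus the vehicle mean on each array for 7 ligands made by stroma (left) and for the 5 lymphocyte receptors above the level filter and Cxcr5, below it, with the means of B and T lymphocyte markers (right); unjoined points are the vehicle arrays. At 18 and 24 h these receptors and both marker means lie below 0 and the ligands on both sides of it; Ccr4, Ccr8 and Ccr10, below the filter and not drawn, were above 0 at both times.

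The remaining pairs lay close to vehicle. Cx3cl1, the membrane-anchored fractalkine, lay between 8.47 and 8.64 over the times (8.49 and 8.55 with vehicle), and its receptor Cx3cr1 of monocytes and macrophages between 7.67 and 7.85 (7.73 and 7.59 with vehicle). Cxcl16, the ligand of Cxcr6, lay between 9.82 and 9.97, against 9.82 on both vehicle arrays. Cxcl17, a mucosal chemokine, lay highest at 24 h, at 9.04, above the 8.89 and 8.78 of vehicle. Ccl24, or eotaxin-2, stood at 8.60, 8.70 and 8.74 on the late arrays, below the 8.85, 8.90 and 8.88 of the early arrays and the 8.92 and 8.79 of vehicle. Ccl22, a ligand of Ccr4, was lowest at 24 h at 8.32 (8.50 and 8.64 with vehicle), and Ccl4 was highest at 6 h at 9.07 (8.97 and 8.68). Below the filter were 16 members. The intestinal pair Ccl25 and Ccr9, the mucosal pair Ccl28 and Ccr10, the pair Xcl1 and Xcr1, which links T and natural killer cells to cross-presenting dendritic cells, and Ccl1, Ccl3, Ccl17, Cxcl11, Ccr3, Ccr4 and Ccr8 were among them. By the brightest probe set, the largest departures of these 13 from the vehicle mean were -0.38 for Ccl3 at 12 h, with 0.57 between its vehicle arrays, and -0.26 for Ccr9 at 18 h. The second Ccl25 probe set, of nearly the same level (6.69 against 6.70), was at 0.48 at 6 h, where the brightest was at -0.04.

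Over windows, no member passed the test in any comparison. The 3 arrays of a window came from different times, so the spread in this test also holds change over time. For Ccl12 the SD was 0.557 over the early arrays and 0.0336 between the vehicle arrays. A difference confined to part of a window can thus fail this test. Early arrays (1, 3 and 6 h, n = 3) against vehicle (n = 2) gave 0 members by limma with Benjamini-Hochberg adjustment, where 0% of 10916 genes were called. At an unadjusted p below 0.05, 3 of 31 members were higher (Ccl12, Ccl2 and Ccr1), where 3.64% of genes were, and 0 were lower, where 1.74% were. Ccl2 was 0.22 ± 0.0777 higher (adjusted p = 0.850), Ccr1 0.33 ± 0.147 (adjusted p = 0.909) and Ccl12 0.65 ± 0.261 (adjusted p = 0.873). With the mean of the muscle markers as covariate Ccr1 lay at -0.11 and Ccl12 at 0.62. That mean was itself higher on the E2 arrays than on vehicle, so this fit cannot separate the muscle markers from E2. In 4 members (Ccl2, Ccl9, Ccr1 and Cxcl16) all early arrays were above both vehicle arrays, against 13.7% of genes, and in 0 all were below, against 6.23%. The median difference of the 31 was 0.04, against 0.013 over all genes tested. Without the 1 h array, Ccl12 was 0.97 higher and was called (adjusted p = 0.0249 by limma). That leaves the 3 and 6 h arrays, on which it had already been named as high, so the call is no separate support. Leaving out 1 array called 0 to 49 genes in this comparison, by the array left out.

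Late arrays against vehicle also gave 0 members, where 0% of genes were called in either direction. At an unadjusted p below 0.05, 1 member was higher (Cxcl14), where 2.8% of genes were, and 2 were lower (Cxcl12 and Ccl24), where 4.8% were. Late arrays all above vehicle were seen in 3 members (Ccl6, Cx3cl1 and Cxcl14), against 11.1% of genes, and all below in 4 (Ccl24, Ccr6, Cxcl10 and Cxcl12), against 13.3%. The median difference was -0.07, against -0.01 over all genes tested. Both windows were set against the same 2 vehicle arrays.

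The late arrays were also set directly against the early ones. Here 0 members were called, where 0.247% of genes were called higher and 0.302% lower, 60 genes in all. At an unadjusted p below 0.05, 8 members were lower in the late window, where 13.6% of genes were, and 2 were higher, where 5.5% were. The 8 were Ccl12 (-0.79 ± 0.234, adjusted p = 0.146), Ccr1 (-0.41 ± 0.131), Ccl7 (-0.36 ± 0.104), Ccl5 (-0.32 ± 0.123), Cxcl12 (-0.23 ± 0.0557), Ccl24 (-0.20 ± 0.0550), Cxcr3 (-0.19 ± 0.0855) and Ccl2 (-0.16 ± 0.0695), with adjusted p from 0.102 to 0.260 in limma. The 2 higher ones were Cxcl17 (0.17 ± 0.0578) and Cxcl14 (0.16 ± 0.0629). By role, 4 of 6 ligands that draw monocytes and eosinophils were among the 8, against 1 of 5 lymphocyte receptors. The median differences of these groups were alike, at -0.18 for the 6 ligands and -0.19 for the 5 receptors. Of the ligands 5 had a negative difference, and of the receptors 4, so the counts at that p do not set the groups apart. Late arrays were all below early arrays in 4 members (Ccl24, Ccl7, Ccr1 and Cxcl12), against 15.0% of genes, and all above in 2 (Cxcl14 and Cxcl17), against 8.96%. All 15 macrophage markers had a negative late minus early difference, with a median of -0.11, and 0 passed (limma, lowest adjusted p = 0.0608). At an unadjusted p below 0.05, 5 of them were lower, where 13.6% of genes were. Negative differences were also found for 16 of 16 B lymphocyte markers (median -0.28), 13 of 14 T lymphocyte markers (-0.18), 10 of 10 fibroblast markers (-0.10) and 17 of 18 skeletal muscle markers (-0.24). Luminal epithelium and adipocyte markers went the other way. Of the luminal markers 10 of 13 were positive (median 0.14) and 2 passed, and of the adipocyte markers 6 of 8 were positive (0.12). Medians of the remaining lists lay between -0.11 (neutrophil) and -0.01 (myoepithelium). The part of the macrophage and fibroblast markers in the members' differences was not tested. Lymphocyte and muscle marker means entered only as covariates in alternative fits. The median of the 31 members was -0.13, against -0.025 over all genes tested. Without the 1 h array Ccl12 was called (-1.11, adjusted p = 0.0068 by limma), where 232 of 10916 genes were called. That leaves only the early arrays on which Ccl12 had already been named as high, so this call is no separate support either. Array weights called 9 members, where 2214 genes were called, and the muscle covariate 5, where 1087 genes were.

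**Figure D5:**
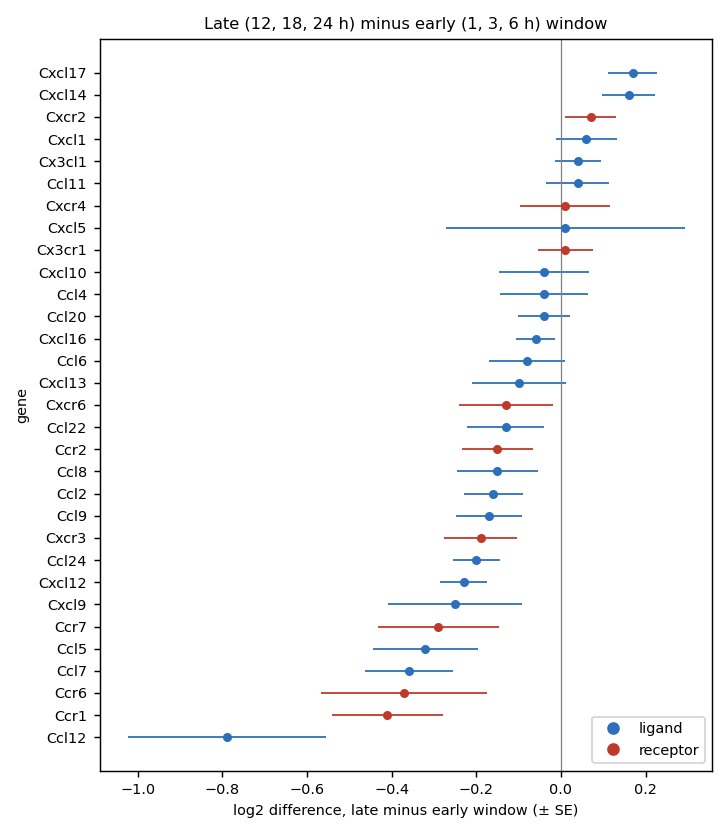
Difference of log2 intensity between the late window (12, 18 and 24 h, n = 3) and the early window (1, 3 and 6 h, n = 3) for the 31 genes above the level filter, with bars for the SE from limma; ligands are blue and receptors red. Ccl12 lies at -0.79, Cxcl17 and Cxcl14 lie at 0.17 and 0.16, and 22 of 31 genes lie below 0.

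Of 30 other genes of the chemokine pathway (atypical receptors, platelet chemokines and signalling proteins), 25 were measured and 19 were above the filter. Ackr3, an atypical receptor that takes up Cxcl12 without G protein signalling, was the 1 of the 19 that passed. It did so in the late against early comparison, where 0.302% of genes were called lower and 0.247% higher. The Ackr3 difference was -0.51 ± 0.0749 (limma, adjusted p = 0.0406, n = 3 each). Leaving out 1 array gave adjusted p from 0.0158 to 0.214, and the call was lost without the 3 h (0.109), 12 h (0.0551), 18 h (0.214) or 24 h array (0.108). It was also lost with quantile normalization (0.0544), the mean of probe sets (0.0503) and the lymphocyte covariate (0.0541). Its level was 10.77 and 10.60 on the vehicle arrays, and 11.25, 11.13, 10.99, 10.52, 10.67 and 10.66 over the times, with every early array above every other array. Early arrays were all above vehicle in 13.7% of genes, and late arrays all below early in 15.0%. Against vehicle the early difference of Ackr3 was 0.44 ± 0.0838 and did not pass (limma, adjusted p = 0.345). Arrb2, the β-arrestin that desensitizes chemokine receptors, lay at -0.35 ± 0.0632 late against early (adjusted p = 0.0508), with 9.74, 9.68 and 9.70 on the late arrays, 9.92, 10.10 and 10.14 on the early arrays and 9.95 and 10.07 with vehicle. The median of the 19 was -0.06 in that comparison.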

How the data were processed

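The deposited table holds intensity values of 8 Affymetrix arrays of 1 colour on a linear scale, from 13.8 to 23591. Per the submitters' processing notes, GCOS 1.0 and RMA were used, without the role or order of each. Array medians of the deposited intensity values lay between 173.9 and 180.5, and the intensities were taken to log2 without further normalization. Of 45101 probe sets, 64 control probe sets were left out, and 34945 had 1 gene symbol, 932 several and 9160 none (GEO's platform annotation). The probe set with the highest mean stood for each of 18193 genes, and 10916 at or above the 40th percentile were tested.

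Early and late windows of 3 arrays each and the 2 vehicle arrays were compared in limma 3.58.1 (R 4.3.3), with 3 window means, a mean-variance trend, two-sided p-values and Benjamini-Hochberg adjustment over all genes tested; the script was tested on simulated data. Single times were described by folds against both vehicle arrays. Family members, gene lists, marker lists and windows were chosen with earlier results of these data known. Every member was described, and values were given by these rules: the 6 highest and lowest window differences, any member 1.5-fold from both vehicle arrays, ligand and receptor pairs, and up to 3 genes of each other list. Alternatives covered the level filter, normalization, probe sets, variance prior, array weights, marker covariates, fold thresholds and leaving out each array.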

Additional observations from a re-analysis of the deposited data

How the results depend on the processing

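Of 634 alternative values of 36 window differences, 605 kept their direction, 29 reversed and 10 were newly called; the cause was not tested. Early against vehicle, genes called went from 0 to 1 with no level filter, 26 with the lymphocyte covariate, 10 with the muscle covariate and 0 to 49 leaving out 1 array, and members called to 0 to 1. Late against vehicle, array weights called 1 gene. Late against early, 60 genes became 6 with the mean of probe sets, 2214 with array weights, 33 with the lymphocyte covariate, 1087 with the muscle covariate and 0 to 232 leaving out 1 array (0 without the 18 h or the 24 h array, 232 without the 1 h array). Members called became 9 with array weights, 5 with the muscle covariate and 0 to 1 leaving out 1 array. Of the members past the fold, 1 was left at 3 h and 1 at 6 h with 7 group means, 1 at 6 h with the mean of probe sets and 0 at 2-fold. At 1.3-fold 1 was gained at 1 h, 18 h and 24 h each. Leaving out 1 vehicle array gave 1 to 1 at 1 h (Ccr6 without vehicle 1, Cxcl9 without vehicle 2) and 0 to 1 at 18 h (Ccr7) and at 24 h (Ccr6).

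Reversals with the muscle covariate were, early against vehicle, Cxcr4 at 0.01, Cxcr6 at 0.36, Ccr6 at 0.30, Ccl9 at -0.01 and Ccr1 at -0.11, and, late against vehicle, Ccr7 at 0.16, Ccl5 at 0.12, Cxcr6 at 0.11, Cxcl1 at -0.14 and Ccl2 at -0.07. This covariate was higher on the E2 arrays than on vehicle, so it overlaps with both of these comparisons. With the lymphocyte covariate, late against vehicle, Cxcr6 was at 0.01, Cxcl1 at -0.05 and Ccl2 at -0.01, and late against early Cxcl1 was at -0.04. With the mean of probe sets, Cxcr6 was at 0.01 early, and Cxcl1 at -0.05 late against vehicle and -0.04 late against early. With array weights Ccr6 was at 0.00 early. Leaving out 1 array, early differences spanned -0.41 to 0.25 for Cxcl5, -0.19 to 0.08 for Cxcr6, -0.22 to 0.18 for Ccr6 and -0.09 to 0.02 for Cxcl17; late against vehicle -0.02 to 0.14 for Ccl2; and late against early -0.04 to 0.09 for Ccl11 and 0.00 to 0.12 for Cxcl1. No paired analysis was possible because each E2 time has 1 array, so the groups compared share fewer than 2 replicate numbers. The number of arrays limits all of these values.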
